A study of Mus musculus with 12 samples.

Results

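The comparison described here sets the retinas of unlasered C57BL/6J mice injected with cp-asiNRL against the retinas of unlasered C57BL/6J mice injected with vehicle, 3 libraries in each group and 6 of the 12 libraries of the series. cp-asiNRL is a cell-penetrating small interfering RNA aimed at Nrl. The first group received 1 µl of it at 6 µg/µl into the vitreous, and the vehicle group received 0.5X PBS by the same route. The other 6 libraries came from C57BL/6J retinas with laser-induced choroidal neovascularisation (CNV) given the same injections, and they are used only for the test of a difference between the 2 retinal states. Age, sex, the number of animals behind a library and the time from injection to collection are not given in the sources used here, so a p-value here weighs a difference against the spread of 3 libraries a group, which may be technical. The vehicle carried no RNA, so an effect of lowering Nrl and an effect of receiving any small interfering RNA cannot be told apart in this design.

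NRL is a leucine zipper transcription factor of the Maf family that rods make and cones do not. With CRX it switches on the rod genes, and through NR2E3 it keeps cone genes low in rods; mouse retinas that never make NRL have short-wavelength cone-like cells where rods should be. The title of the series gives turning rods into cone-like cells by Nrl knockdown as the aim. A small interfering RNA acts through an Argonaute protein that cuts the matching messenger RNA, so the messenger RNA of the target is the first readout of its action.

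Reads assigned to genes numbered 51298466 to 60077392 per library, and 24321 of 40202 genes passed the filter on low counts. Levels are given as reads scaled to the library total (CPM), which is not scaled to gene length, so levels are compared between libraries and not between genes. Of the genes kept, 2245 (9.23%) passed limma's test over the 6 libraries at an adjusted p of 0.05, 621 of them higher (2.55%) and 1624 lower (6.68%) after cp-asiNRL, while 28.1% of genes had groups that did not overlap, 10.4% with the cp-asiNRL libraries above and 17.7% below. The main axis of variation, 44.3% of the variance, separated the groups, and the next one set cp-asiNRL 1 apart from cp-asiNRL 2 and cp-asiNRL 3. The split between higher and lower calls depended on scaling: it was 1486 higher and 842 lower when libraries were scaled to their upper quartile, 689 and 1172 when scaled to the total alone, and 757 and 1311 with median-of-ratios scaling. Single libraries mattered too, with 1438 calls (5.96%) without cp-asiNRL 1, 990 (4.13%) without cp-asiNRL 2 and 526 (2.18%) without PBS 1. Those were 503 higher (2.09%) and 935 lower (3.88%) without cp-asiNRL 1, 331 higher (1.38%) and 659 lower (2.75%) without cp-asiNRL 2, and 161 higher (0.667%) and 365 lower (1.51%) without PBS 1. When the CNV libraries shared the fit, 36 genes (0.141%) were called, 12 higher (0.0468%) and 24 lower (0.0937%). No rod, cone or photoreceptor regulator gene was among those 36. The libraries had the makeup of retina, with Gnat1 of rods at 1952 to 2212 CPM in the cp-asiNRL retinas and 2508 to 2849 CPM in the PBS retinas, while Cryaa of the lens had 0 to 15 reads and Cdh5 of endothelium 85 to 107 reads per library. Ddx3y, a gene of the Y chromosome, had 3548 to 4777 reads per library, and Xist, which female cells express, had 5 to 24.

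The direction of change followed the length of the gene on the genome, over which reads were counted with introns included. Genes spanning under 1 kb had a median log2 change of -0.04 with 5 called higher and 74 lower of 1206, and those of 3 to 10 kb had a median of -0.06 with 49 higher and 594 lower of 5146. At the other end, genes of 100 to 300 kb had a median of 0.05 with 114 higher and 34 lower of 2140, and genes over 300 kb a median of 0.07 with 55 higher and 5 lower of 595. With this trend removed from the log2 values, 1411 genes (5.8%) were called, 464 higher and 947 lower (1.91% and 3.89%). The part of this trend in any single result was not tested, and the counts without it are given below for the lists of short genes.

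**Figure D1:**
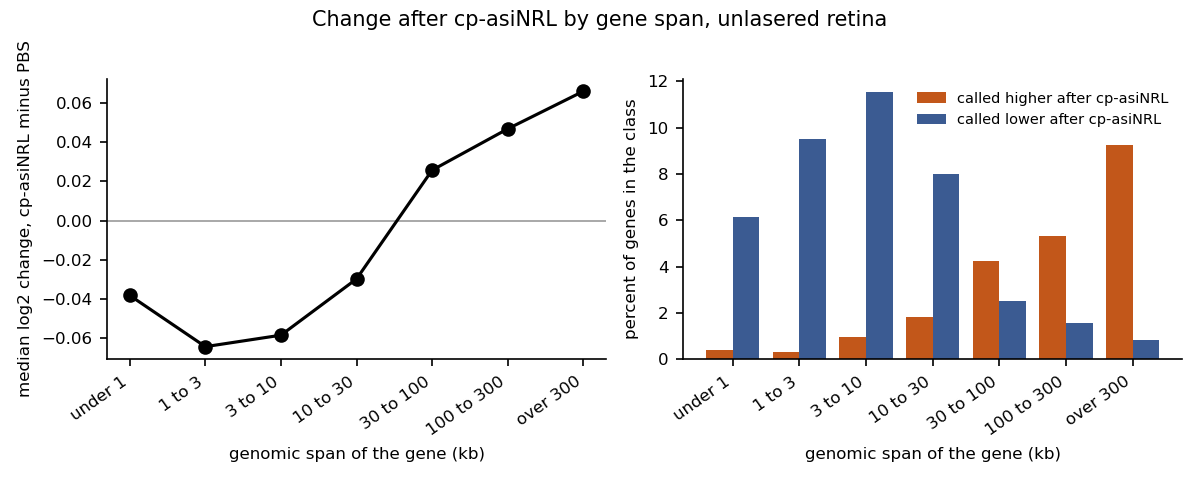
Median log2 change of cp-asiNRL over PBS (first panel) and percentage of genes called higher or lower (second panel) by class of genomic span in kb. The median is -0.06 in genes of 1 to 10 kb and 0.07 in genes over 300 kb, and lower calls outnumber higher calls in every class below 30 kb.

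The gene lists used below hold 845 genes of the table in 44 lists, of which 791 were kept, and 221 of those passed the test. The lists with 11 or more lower calls were replication-dependent histones with 21, ribosomal proteins with 19, glycolysis with 16, cholesterol synthesis with 12, and proteasome, respiratory chain and the unfolded protein response with 11 each. Glial injury had the most higher calls, 8. For each list the count of called members is set beside the 2.55% and 6.68% found over all genes, and its median log2 change beside the -0.0076 of all genes.

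**Figure D2:**
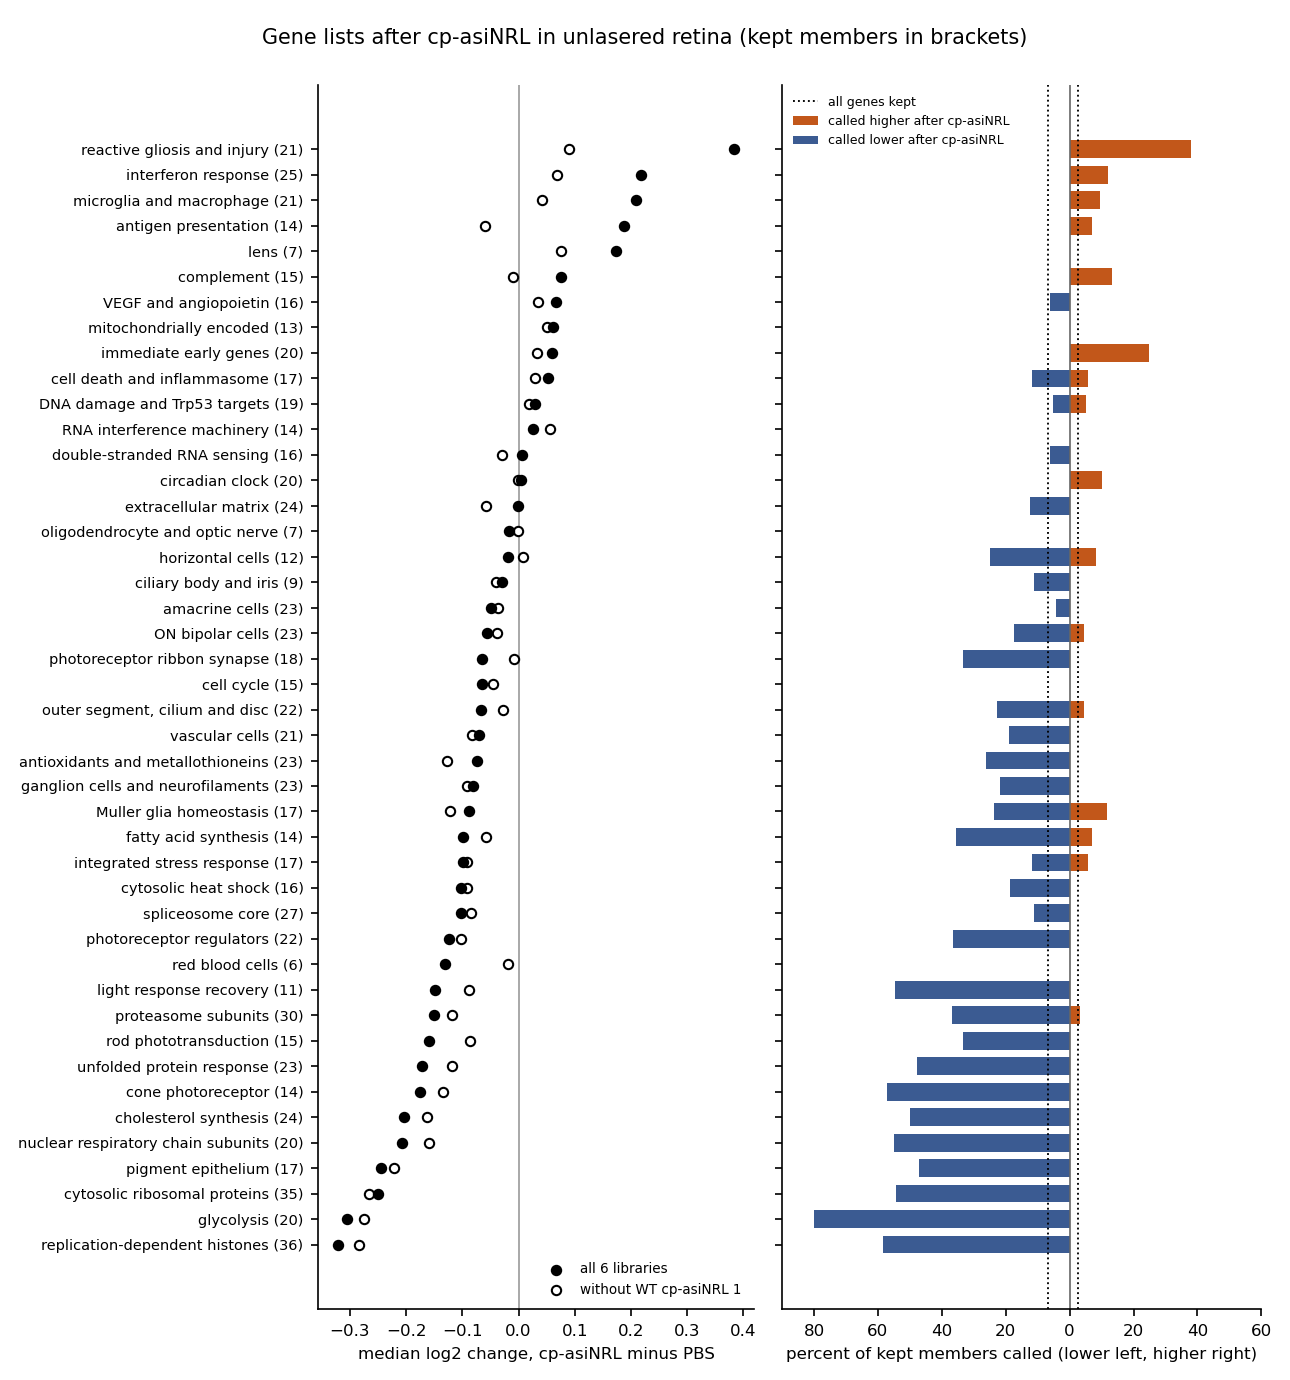
Left, median log2 change of cp-asiNRL over PBS for the kept members of each list, with filled points for all 6 libraries and open points without cp-asiNRL 1. Right, percentage of kept members called lower (to the left) and higher (to the right), with dotted lines at the percentages over all genes kept. The medians of the reactive gliosis, microglia and interferon lists move toward 0 without cp-asiNRL 1, and those of glycolysis, ribosomal proteins and pigment epithelium stay below -0.20.

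Nrl itself was lower in every retina given cp-asiNRL. It stood at 395, 412 and 461 CPM in the cp-asiNRL retinas, against 562, 502 and 549.6 CPM in the PBS retinas. The groups did not overlap, the highest cp-asiNRL library lying 8.18% below the lowest PBS library and the lowest cp-asiNRL library 29.7% below the highest PBS library. Means were 423 ± 34.3 and 538 ± 31.5 CPM (SD, n = 3 each), a fall of 21.4% (log2 change -0.35 ± 0.06 SE, adjusted p = 0.00093). An exact two-sided permutation test of the means gave p = 0.1, the smallest that 3 against 3 allows. Behind each value lie 21955 to 32526 reads of a gene at chromosome 14, 55756435 to 55762438 on the minus strand (GRCm39), which no other gene of the table overlaps. The call held without any single library and was not made when the CNV libraries shared the fit (log2 change -0.34, adjusted p = 0.318).

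Among 22 transcription factors and cofactors of photoreceptors, 8 fell and none rose, with a median of -0.12. The smallest p belonged to Samd7, whose protein brings Polycomb repression to genes that rods keep silent. It measured 61.1, 63 and 62.4 CPM in the cp-asiNRL retinas and 73.5, 80.4 and 75.2 CPM in the PBS retinas. The groups were apart, and the change was -0.29 ± 0.05 SE with an adjusted p of 0.000754; an unnamed gene lies on its other strand, so reads of the pair cannot be told apart. Its partner Samd11 had 173, 194 and 191 CPM after cp-asiNRL and 237, 207 and 216 CPM after PBS (log2 change -0.24 ± 0.05 SE, adjusted p = 0.00775). Nr2e3, the nuclear receptor that acts with NRL to hold cone genes down, had 282, 307 and 328 CPM after cp-asiNRL and 379, 330.4 and 355 CPM after PBS (log2 change -0.21 ± 0.06 SE, adjusted p = 0.0212). Both were lower in each treated library than in any vehicle library, by a small margin in the case of Nr2e3. Prdm1, which steers photoreceptor precursors away from the bipolar fate, changed by -0.20 ± 0.05 SE with an adjusted p of 0.0192, Pias3, which attaches SUMO to NR2E3, by -0.21 ± 0.06 SE with an adjusted p of 0.0304, Otx2, which starts the photoreceptor programme, by -0.15 ± 0.04 SE with an adjusted p of 0.0412, and Esrrb, a receptor that keeps adult rods alive, by -0.19 ± 0.06 SE with an adjusted p of 0.047.

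Of the regulators that did not pass the test, Crx, the homeobox factor shared by rods and cones, had 485, 501 and 538 CPM in cp-asiNRL retinas and 571, 529 and 563 CPM in PBS retinas, with overlapping groups (log2 change -0.13 ± 0.05 SE, adjusted p = 0.112). Thrb, whose product specifies middle-wavelength cones, measured -0.05 on the log2 scale (adjusted p = 0.602) and Rxrg, its partner in cones, -0.11 (adjusted p = 0.416). Rorb, which acts before Nrl in rod specification, stood at -0.04, Mef2c at 0.12 and Neurod1, needed for photoreceptor survival, at 0.00. Nrl and Samd7 were called without each single library; Samd11 was not without cp-asiNRL 1 (adjusted p = 0.0583) or PBS 1 (adjusted p = 0.101), and Prdm1, Pias3, Otx2 and Esrrb were called in 2, 2, 1 and 1 of the 6 fits that leave out a library, with adjusted p up to 0.0865, 0.19, 0.3 and 0.181. Of the 8 calls, 2 were made without cp-asiNRL 1 or without PBS 1, and 4 without cp-asiNRL 2 or without PBS 2; Nr2e3 had adjusted p = 0.158, 0.0782 and 0.198 without cp-asiNRL 1, cp-asiNRL 2 and PBS 1, and 3 calls were made with upper-quartile scaling and 5 with scaling to the total alone or with the span trend removed.

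Of 15 rod phototransduction genes 5 fell and none rose, Nr2e3 counted here too. All 15 had a negative log2 change, the median was -0.16, and 10 had groups that did not overlap. Rom1, a protein of the disc rim, had the smallest p. It measured 533, 590.5 and 607 CPM after cp-asiNRL and 833, 720.0 and 763 CPM after PBS, a fall of 25.3% (log2 change -0.42 ± 0.06 SE, adjusted p = 0.000324). Prph2, whose protein pairs with ROM1 to bend the disc edge, had 1754, 1893 and 2011 CPM after cp-asiNRL and 2537, 2203 and 2415 CPM after PBS (log2 change -0.34 ± 0.06 SE, adjusted p = 0.003). For both genes each treated library lay below each vehicle library.

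Gnat1, the rod transducin alpha subunit that carries the light signal to the phosphodiesterase, had 1952, 2078 and 2212 CPM in cp-asiNRL retinas and 2849, 2508 and 2629 CPM in PBS retinas (log2 change -0.36 ± 0.06 SE, adjusted p = 0.00185). Pde6g, the inhibitory subunit of the rod phosphodiesterase, had 292, 325 and 331 CPM in cp-asiNRL retinas and 413, 367 and 374 CPM in PBS retinas (log2 change -0.28 ± 0.05 SE, adjusted p = 0.00291). In neither did the groups overlap. The catalytic phosphodiesterase subunits measured -0.13 for Pde6a (adjusted p = 0.124) and -0.14 for Pde6b (adjusted p = 0.0997). Transducin beta and gamma measured -0.16 for Gnb1 (adjusted p = 0.0905) and -0.17 for Gngt1 (adjusted p = 0.118). The channel and exchanger that carry the rod current were at -0.08 for Cnga1, -0.09 for Cngb1 and -0.13 for Slc24a1, the kinase Grk1 of the rod pigment at -0.11 and rod arrestin Sag at -0.04 (adjusted p = 0.725), none of them called. Rom1, Prph2, Gnat1 and Pde6g were called without each single library. In bulk retina, fewer rods and less RNA per rod cannot be told apart.

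Of 14 cone genes 8 fell, none was called higher, and the median was -0.18. Opn1sw, the short-wavelength opsin, had 177, 190.3 and 214 CPM in cp-asiNRL retinas and 266, 245 and 254 CPM in PBS retinas, every treated library being lower. The fall was 24.1% (log2 change -0.40 ± 0.06 SE, adjusted p = 0.000397); Calu overlaps this gene on the other strand. Opn1mw, the middle-wavelength opsin, had 87.3, 80.6 and 88.1 CPM after cp-asiNRL and 80.2, 81.9 and 78 CPM after PBS. Its groups overlapped and the change of 0.09 ± 0.05 SE had an adjusted p of 0.228. The cone transducin genes were lower, with 58.4, 59.7 and 68 CPM after cp-asiNRL and 77.3, 70.5 and 76.6 CPM after PBS for the alpha subunit Gnat2 (log2 change -0.27 ± 0.06 SE, adjusted p = 0.00539). For the gamma subunit Gngt2 the levels were 13.3, 13.1 and 14.1 CPM after cp-asiNRL and 18.5, 17.9 and 18.5 CPM after PBS (log2 change -0.41 ± 0.06 SE, adjusted p = 0.000524), with tight groups far apart.

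Pde6h, the cone inhibitory phosphodiesterase subunit, had 27.8, 27.1 and 32.4 CPM after cp-asiNRL and 40.4, 38.9 and 35.7 CPM after PBS (log2 change -0.39 ± 0.06 SE, adjusted p = 0.00106), and the catalytic subunit Pde6c changed by -0.14 ± 0.04 SE with an adjusted p of 0.0477. Kcne2, a potassium channel subunit, had 19.8, 20.7 and 22.2 CPM after cp-asiNRL and 26.4, 26.2 and 27 CPM after PBS (log2 change -0.33 ± 0.06 SE, adjusted p = 0.00134). Cone arrestin Arr3 had 149, 145 and 169 CPM after cp-asiNRL and 189, 186 and 177 CPM after PBS (log2 change -0.26 ± 0.05 SE, adjusted p = 0.00493). In all 3 of these the treated libraries were the lower ones without overlap. Guca1a, a cyclase activator of both photoreceptor types, changed by -0.18 ± 0.05 SE with an adjusted p of 0.0299. The genes not called were the channel subunits Cnga3 at -0.17 and Cngb3 at 0.02, the exchanger Slc24a2 at 0.03, transducin beta Gnb3 at -0.07 and Ccdc136 at -0.08. Without PBS 1, 4 of the 8 were called and without cp-asiNRL 2, 5; Opn1sw, Gngt2, Pde6h and Kcne2 were called without each single library, while Arr3 was not without cp-asiNRL 2 (adjusted p = 0.0512) or PBS 1 (adjusted p = 0.0616), nor Gnat2 without PBS 1 (adjusted p = 0.067). Guca1a and Pde6c were called in 2 and 1 of the 6 fits that leave out a library, with adjusted p up to 0.244 and 0.285.

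**Figure D3:**
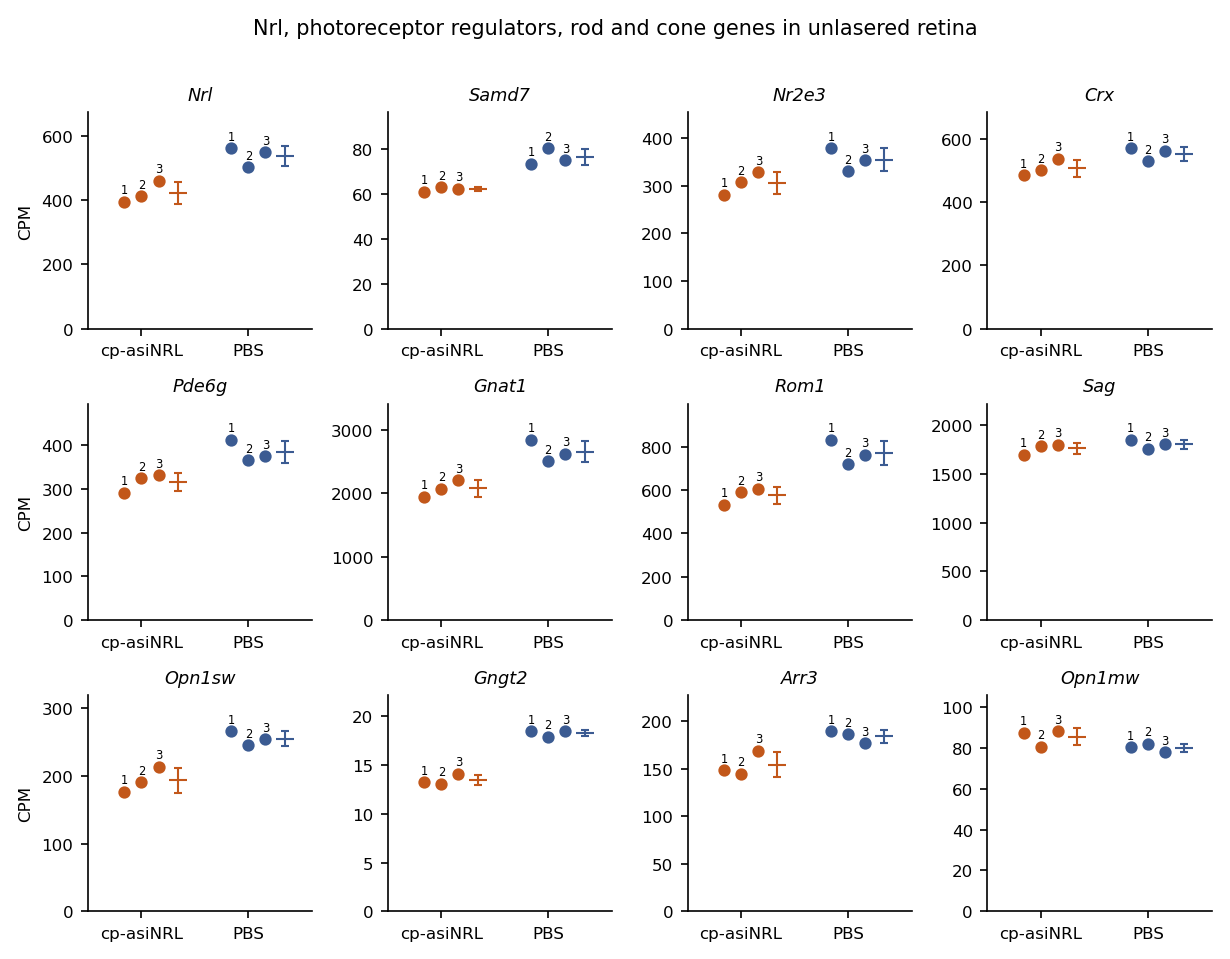
Level in CPM (linear axes starting at 0) of 12 photoreceptor genes in each cp-asiNRL library (left of each panel) and each PBS library (right), with bars at the mean and SD of 3 libraries. Nrl, Samd7, Rom1, Gnat1, Opn1sw and Gngt2 have cp-asiNRL libraries wholly below the PBS libraries, whereas Sag, Crx and Opn1mw overlap.

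Because NRL binds Maf recognition elements, the promoter windows of RefSeq (GRCm38.p6, 250 bases before to 50 after the start) were read for the Maf half-site TGCTGA on both strands. It was in 3 of 11 rod genes with a window, 1 of 10 cone genes and 6 of 19 regulators, against 21.7% of all genes with a window, 5859 of 27025. The match among cone genes was in Opn1sw. Its window at chr6:29380464-29380763 is shown in the direction of its minus strand. The half-site, read there as its reverse complement TCAGCA, is in capitals. A match is a description of these letters and not of binding.
Opn1sw: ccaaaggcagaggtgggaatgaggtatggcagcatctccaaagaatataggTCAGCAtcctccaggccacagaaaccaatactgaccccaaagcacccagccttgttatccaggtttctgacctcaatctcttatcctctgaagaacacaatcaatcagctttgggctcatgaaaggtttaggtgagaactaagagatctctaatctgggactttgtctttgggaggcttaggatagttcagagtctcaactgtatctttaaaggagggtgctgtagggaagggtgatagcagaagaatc

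Most calls among genes that surround phototransduction were lower ones. In light response recovery 6 of 11 genes fell and none rose (median -0.15). Rcvrn, the calcium sensor that holds back the kinase of the rod pigment, had 237, 255 and 263 CPM in cp-asiNRL retinas and 347, 314 and 302 CPM in PBS retinas (log2 change -0.35 ± 0.05 SE, adjusted p = 0.00055). Pdc, which binds transducin beta and gamma, had 803, 842 and 844 CPM in cp-asiNRL retinas and 947, 1009.8 and 1089 CPM in PBS retinas (log2 change -0.29 ± 0.05 SE, adjusted p = 0.00253). Neither pair of groups overlapped, and both genes were called without each single library. Among 22 genes of the outer segment, cilium and disc 5 fell and 1 rose (median -0.07), led by Tulp1, a transport protein of the inner segment, at -0.23 ± 0.05 SE with an adjusted p of 0.00618. Among 18 genes of the photoreceptor ribbon synapse 6 fell and none rose (median -0.06). Cplx4, a complexin of these synapses, had 210.4, 216 and 224 CPM after cp-asiNRL and 248, 247 and 258 CPM after PBS (log2 change -0.21 ± 0.04 SE, adjusted p = 0.00454), without overlap. These counts were not stable to single libraries: recovery had 2 calls without cp-asiNRL 1 or PBS 1 and 3 without cp-asiNRL 2, outer segment genes 3 lower calls without cp-asiNRL 1 and 0 without PBS 1, where Tulp1 had adjusted p = 0.0802, and synapse genes 3 without cp-asiNRL 1 or cp-asiNRL 2 and 1 without PBS 1. Upper-quartile scaling gave 3 lower calls for recovery, and 2 higher and 2 lower for the synapse, whose median was then -0.0067; leaving out PBS 2 or PBS 3 gave 2 and 1 higher calls there.

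Genes of the retinal pigment epithelium included the largest fall among called list members. This layer recycles the visual pigment chromophore and adheres to the photoreceptors, and its remnants come with a dissected retina in varying amounts. Of 17 of its genes 8 fell, none rose, and the median was -0.25. Ttr, the carrier of retinol and thyroxine, had 3.67, 3.44 and 3.42 CPM in the cp-asiNRL retinas and 6.59, 6.41 and 9.19 CPM in the PBS retinas. That fall of 52.5% (log2 change -0.88 ± 0.11 SE, adjusted p = 0.000108), with no overlap, was the largest on the log2 scale among called genes that averaged at least 2 CPM, unnamed gene models left out. Rgr, an opsin of the visual cycle, had 7.06, 5.88 and 6.89 CPM after cp-asiNRL and 10.8, 9.4 and 12.9 CPM after PBS (log2 change -0.66 ± 0.10 SE, adjusted p = 0.000524). Lrat, which esterifies retinol, had 1.46, 1.3 and 1.34 CPM after cp-asiNRL and 2.72, 2.37 and 2.52 CPM after PBS (log2 change -0.58 ± 0.09 SE, adjusted p = 0.000763). Both pairs of groups were apart. Rlbp1, the retinaldehyde carrier of pigment epithelium and Müller glia, had 107, 107 and 109 CPM after cp-asiNRL and 132, 124 and 128 CPM after PBS (log2 change -0.25 ± 0.04 SE, adjusted p = 0.00134).

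The other 4 lower calls of that list, named after their values were seen, were the pigment enzymes Dct and Tyrp1 and the visual cycle enzymes Rdh5 and Rpe65; Rpe65 had 1.78, 2.12 and 1.86 CPM in cp-asiNRL retinas and 2.72, 2.72 and 3.38 CPM in PBS retinas (log2 change -0.43 ± 0.10 SE, adjusted p = 0.00976). Best1, a channel of this layer, measured 0.05 (adjusted p = 0.8) and Mitf, its master regulator, 0.01, both also named after their values were seen. The summed level of the list was 217 to 223 CPM after cp-asiNRL and 251 to 259 CPM after PBS. A large part of that sum, and of its fall, was Rlbp1, which Müller glia share. Leaving out PBS 1 left 7 of the 8 calls, with Rdh5 at an adjusted p of 0.0635, and leaving out any other library left 8. With overlapping genes left out, 4 members were called lower, beside 893 of 11382 genes, and the list median was -0.046. Ttr, Rgr and Lrat overlap other genes (Gm16090, Lrit1 and Rbm46os), so reads of each pair cannot be told apart. How much pigment epithelium each sample carried is not given in the sources used here, and fewer of these cells in a sample and less RNA per cell cannot be told apart. The Müller glia list had 2 higher and 4 lower calls of 17 (median -0.09); Glul, their glutamine synthetase, changed by -0.17 ± 0.05 SE with an adjusted p of 0.0241, and Apoe, their main lipid carrier, by 0.41 ± 0.11 SE with an adjusted p of 0.025. Of the lower calls 1 was made without cp-asiNRL 2 or PBS 1 or with upper-quartile scaling, and of the higher calls 0 without PBS 1 or PBS 2; Glul was called in 2 of the 6 fits that leave out a library and Apoe in 3, with adjusted p up to 0.205 and 0.084.

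Glycolysis was the list with the highest share of called genes. Photoreceptors turn most of their glucose into lactate, and of 20 genes of this route 16 fell, none rose and all had a negative log2 change, with a median of -0.31. In 18 the cp-asiNRL libraries were below all PBS libraries, and the summed level was 3658 to 3848 CPM in the cp-asiNRL retinas and 4478 to 4521 CPM in the PBS retinas. Bsg, basigin, the escort of the lactate carriers and the receptor on cones for a survival factor from rods, had 156, 154 and 159 CPM after cp-asiNRL and 213, 196 and 204 CPM after PBS (log2 change -0.38 ± 0.04 SE, adjusted p = 8.14e-05). Tpi1, triosephosphate isomerase, had 102, 113 and 99.6 CPM after cp-asiNRL and 139, 137 and 142 CPM after PBS (log2 change -0.41 ± 0.05 SE, adjusted p = 0.000108). Aldoa, aldolase A, had 362, 388 and 390.0 CPM after cp-asiNRL and 510.2, 476 and 510.0 CPM after PBS (log2 change -0.39 ± 0.05 SE, adjusted p = 0.000108). Eno1, enolase, was at 136, 135 and 128 CPM after cp-asiNRL and 166, 164 and 168 CPM after PBS (log2 change -0.32 ± 0.04 SE, adjusted p = 0.000211). The groups of all 4 genes were clearly apart. The 4 members not called, named after their values were seen, were the carriers Slc2a1 (-0.11) and Slc16a1 (-0.09) and the enzymes Ldhb (-0.11) and Hk1 (-0.06). From 13 to 16 of the 20 were called without any single library, 13 with upper-quartile scaling and 15 with the span trend removed.

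Of 20 nuclear genes for respiratory chain subunits 11 fell and none rose (median -0.21). Cox4i1 of complex IV had 42.3, 41.1 and 42 CPM in cp-asiNRL retinas and 54.3, 49.8 and 50.9 CPM in PBS retinas (log2 change -0.30 ± 0.05 SE, adjusted p = 0.000861), and Atp5a1, the ATP synthase alpha subunit, had 178, 178 and 186 CPM in cp-asiNRL retinas and 217, 213 and 215 CPM in PBS retinas (log2 change -0.25 ± 0.04 SE, adjusted p = 0.000986). Both pairs of groups were apart, and both calls held without each single library. Of the 13 genes that mitochondria encode, limma called 0 in either direction (5 at an unadjusted p under 0.05, and 1 lower with limma's voom weights), with a median of 0.06; ND4 measured 0.15 (adjusted p = 0.104) and COX1 -0.16 (adjusted p = 0.117). The nuclear count was 7 without cp-asiNRL 1 or with upper-quartile scaling and 5 without PBS 1, and 2 mitochondrial genes were called higher with upper-quartile scaling or with the span trend removed.

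Ribosomal protein and histone genes, most of them short, gave many lower calls. Of 35 cytosolic ribosomal protein genes, whose median span is 3230 bp, all had a negative log2 change, 19 fell and none rose (median -0.25). Rpl8 of the large subunit had 63.7, 64.2 and 69 CPM after cp-asiNRL and 92.9, 78 and 83.3 CPM after PBS (log2 change -0.36 ± 0.06 SE, adjusted p = 0.000679). Its groups did not overlap. Of 36 replication-dependent histone genes, with a median span of 503 bp, 21 fell and none rose (median -0.32). H4c3, a histone H4 gene, had 65, 69 and 77.7 CPM after cp-asiNRL and 118, 118 and 107 CPM after PBS, a fall of 38.4% (log2 change -0.69 ± 0.06 SE, adjusted p = 2.07e-06), and H2bc3, a histone H2B gene, had 5.91, 7.25 and 7.6 CPM after cp-asiNRL and 10.6, 11.6 and 10.3 CPM after PBS (log2 change -0.59 ± 0.09 SE, adjusted p = 0.000541). Histone genes have near-identical copies and their messages mostly lack a poly(A) tail, so how reads were shared between copies, and the part of the selection for poly(A), were not tested. With the span trend removed 10 ribosomal and 14 histone genes were called; without PBS 1 the counts were 6 and 9, and 8 ribosomal genes were called without cp-asiNRL 2.

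Several chaperone genes of the endoplasmic reticulum fell. Cells answer misfolded protein there by a response in which ATF6 and spliced XBP1 raise chaperone genes. Of 23 genes of this unfolded protein response 11 fell, none rose, and the median was -0.17. Hspa5, the master chaperone BiP, had 76, 78.8 and 79.6 CPM in cp-asiNRL retinas and 96.4, 106 and 103 CPM in PBS retinas. Means were 78.1 ± 1.92 and 102 ± 5 CPM (SD, n = 3 each), a fall of 23.3% (log2 change -0.38 ± 0.05 SE, adjusted p = 0.000108), with no overlap. Calr, the calcium-binding chaperone calreticulin, had 73.1, 80.2 and 84.1 CPM after cp-asiNRL and 106, 103 and 105 CPM after PBS (log2 change -0.40 ± 0.05 SE, adjusted p = 0.000109). Xbp1, the transcription factor of the response, had 27.5, 28.4 and 27.1 CPM after cp-asiNRL and 34.9, 37.2 and 36.1 CPM after PBS (log2 change -0.37 ± 0.05 SE, adjusted p = 0.0003). Pdia6, a disulfide isomerase, had 30.9, 31.9 and 32.9 CPM after cp-asiNRL and 40.5, 41.2 and 39 CPM after PBS (log2 change -0.33 ± 0.05 SE, adjusted p = 0.00061). Every treated library was below every vehicle library in these 4 genes, and the 4 stayed called when the CNV libraries shared the fit, where 4 of the list's 23 were called lower against 0.0937% of all genes. Without PBS 1, 5 of the 23 were called. Rabepk overlaps Hspa5 on the other strand. Hsp90b1, the chaperone GRP94, named after its values were seen, changed by -0.25 ± 0.05 SE with an adjusted p of 0.0032.

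ATF6 binds the endoplasmic reticulum stress element, searched as CCAAT, then any 9 bases, then CCACG, on both strands of the same RefSeq windows. It was in 9 of 20 genes of the list with a window (45%), against 37 of 27025 genes (0.137%). The windows of 4 called genes are shown because they carry the element that this list is known for, printed 5′ to 3′ in the direction of the gene with the match in capitals. They lie at chr2:34771840-34772139 on the plus strand for Hspa5, chr8:84846882-84847181 on the minus strand for Calr, chr12:17266339-17266638 on the plus strand for Pdia6 and chr10:86705395-86705694 on the minus strand for Hsp90b1 (GRCm38.p6). In Calr, and in the second match of Hsp90b1, the element reads on the opposite strand. The lists were drawn up by function, and the element was not used to choose them. This list nonetheless holds genes known for the response that ATF6 drives. A high share of matches was thus fixed in advance and says nothing about the changes measured here.
Hspa5: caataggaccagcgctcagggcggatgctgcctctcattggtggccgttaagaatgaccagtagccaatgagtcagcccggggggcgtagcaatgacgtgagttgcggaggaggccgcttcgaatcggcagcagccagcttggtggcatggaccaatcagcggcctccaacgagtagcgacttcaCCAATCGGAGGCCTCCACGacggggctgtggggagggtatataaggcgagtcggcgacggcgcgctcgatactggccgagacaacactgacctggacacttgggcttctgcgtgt
Calr: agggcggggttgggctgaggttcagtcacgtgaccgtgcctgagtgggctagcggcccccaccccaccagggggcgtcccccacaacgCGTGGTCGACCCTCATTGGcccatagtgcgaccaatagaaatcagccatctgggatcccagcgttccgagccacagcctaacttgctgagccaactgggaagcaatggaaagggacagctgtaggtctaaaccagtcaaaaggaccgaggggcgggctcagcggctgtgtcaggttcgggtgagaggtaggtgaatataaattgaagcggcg
Pdia6: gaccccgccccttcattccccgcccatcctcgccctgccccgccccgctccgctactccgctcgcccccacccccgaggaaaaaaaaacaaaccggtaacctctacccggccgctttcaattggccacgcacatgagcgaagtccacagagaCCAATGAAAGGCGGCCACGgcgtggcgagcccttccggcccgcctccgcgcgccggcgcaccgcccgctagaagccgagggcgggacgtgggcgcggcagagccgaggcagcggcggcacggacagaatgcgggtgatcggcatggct
Hsp90b1: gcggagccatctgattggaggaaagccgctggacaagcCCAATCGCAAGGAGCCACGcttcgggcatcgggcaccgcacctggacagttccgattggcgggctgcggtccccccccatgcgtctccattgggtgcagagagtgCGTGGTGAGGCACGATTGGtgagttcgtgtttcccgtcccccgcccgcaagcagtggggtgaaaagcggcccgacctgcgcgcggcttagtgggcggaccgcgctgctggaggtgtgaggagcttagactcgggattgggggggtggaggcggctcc

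**Figure D4:**
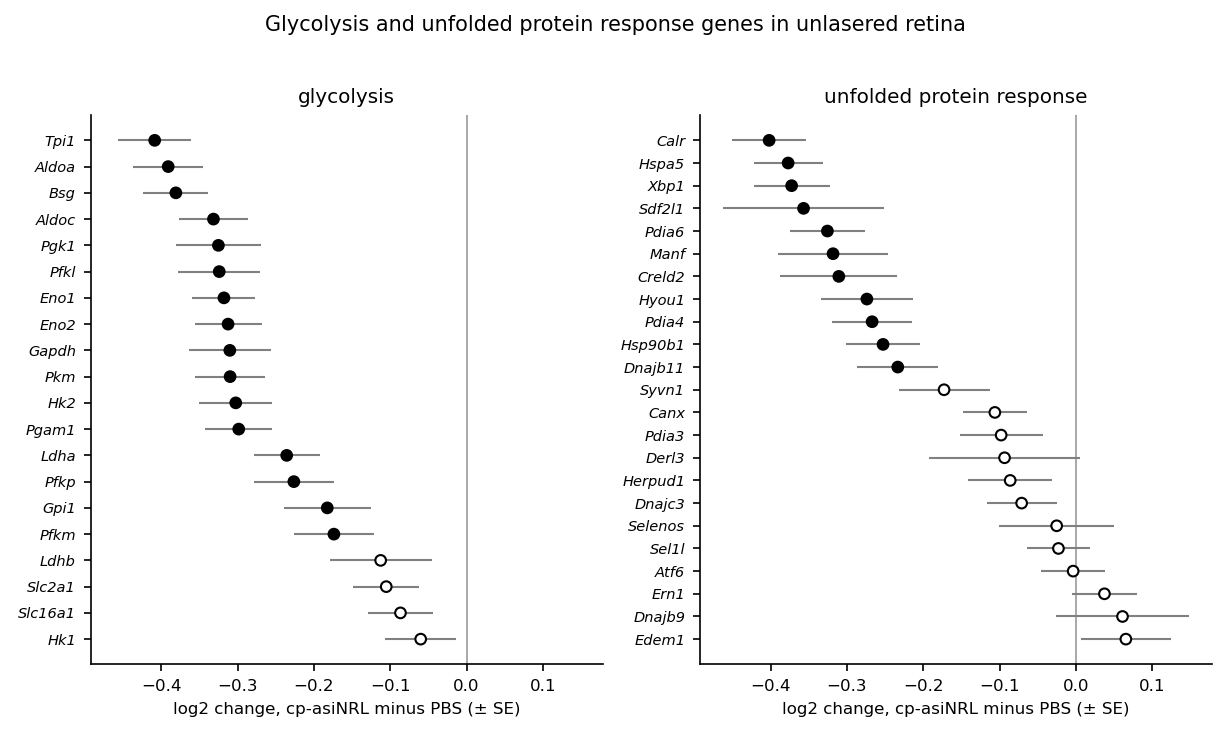
Log2 change of cp-asiNRL over PBS with its SE for each kept gene of glycolysis and of the unfolded protein response (n = 3 libraries each), with filled points for an adjusted p under 0.05. All 20 glycolysis genes and 20 of 23 unfolded protein response genes lie below 0.

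Other stress and protein-turnover genes moved less uniformly. In the integrated stress response 1 of 17 genes rose and 2 fell. The riser was Atf3, a factor induced by injury, with 5.46, 4.1 and 5.5 CPM in cp-asiNRL retinas and 3.7, 3.03 and 3.51 CPM in PBS retinas (log2 change 0.44 ± 0.10 SE, adjusted p = 0.0124), its groups apart; Ddit3, the death-promoting factor CHOP, changed by -0.26 ± 0.06 SE with an adjusted p of 0.0146 and was not called without cp-asiNRL 2 (adjusted p = 0.132) or PBS 1 (adjusted p = 0.112). Of 16 cytosolic heat shock genes 3 fell, and Hspa8, the constitutive HSC70, had 121, 127 and 132 CPM after cp-asiNRL and 158, 156 and 158 CPM after PBS (log2 change -0.31 ± 0.04 SE, adjusted p = 0.000318), a call that held without each single library and with the CNV libraries in the fit. The heat shock count was 1 without cp-asiNRL 2 or PBS 1 and 5 without cp-asiNRL 3. Of 30 proteasome subunit genes 11 fell and 1 rose (median -0.15), with 5, 1 and 2 lower calls without cp-asiNRL 1, cp-asiNRL 2 and PBS 1, 4 with upper-quartile scaling and 5 with the span trend removed. Psmc3, an ATPase of the proteasome cap, fell (-0.29 ± 0.05 SE with an adjusted p of 0.00207) and Psmd11, a scaffold of the lid, rose (0.21 ± 0.05 SE with an adjusted p of 0.0112), though not without PBS 1 (adjusted p = 0.0706). Of 27 spliceosome genes 3 fell, and 0 were called without cp-asiNRL 1, cp-asiNRL 2 or PBS 1, or with upper-quartile scaling.

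Cholesterol synthesis genes, which the factor SREBP2 drives together, were lower. Of 24, 12 fell, none rose and 23 had a negative log2 change (median -0.20). Insig1, which retains the SREBP complex when sterols are plentiful, had 38.1, 46 and 48.1 CPM after cp-asiNRL and 57.4, 53 and 56.6 CPM after PBS (log2 change -0.34 ± 0.07 SE, adjusted p = 0.00371). Hmgcs1, an early enzyme of the pathway, had 63.2, 72.9 and 77.2 CPM after cp-asiNRL and 84.2, 84.1 and 90.7 CPM after PBS (log2 change -0.28 ± 0.06 SE, adjusted p = 0.00592). In both genes the groups were apart, with cp-asiNRL 1 the lowest. The count was 6 without cp-asiNRL 1, 4 without cp-asiNRL 2 or PBS 1, 5 with upper-quartile scaling and 7 with the span trend removed; Insig1 was not called without PBS 1 (adjusted p = 0.0515). Of 14 fatty acid synthesis genes 5 fell and 1 rose, and 0 of the 5 were called without PBS 1 and 1 without cp-asiNRL 1 or cp-asiNRL 2.

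The largest share of higher calls was in glial injury. Of 21 genes of reactive gliosis and injury 8 rose, none fell, and 20 had a positive log2 change (median 0.38). Fgf2, a growth factor that retinal glia and photoreceptors make after injury, had 61.6, 46.8 and 47.9 CPM in the cp-asiNRL retinas and 28.1, 27.2 and 28.9 CPM in the PBS retinas. All treated libraries were well above the vehicle libraries, at a mean of 52.1 ± 8.24 against 28 ± 0.835 CPM (SD, n = 3 each) and a ratio of 1.86 (log2 change 0.86 ± 0.07 SE, adjusted p = 2.81e-06); Nudt6 overlaps Fgf2 on the other strand. Edn2, the endothelin that stressed photoreceptors release to signal to Müller glia, had 4.14, 2.47 and 2.17 CPM after cp-asiNRL and 0.756, 0.94 and 1.08 CPM after PBS (log2 change 0.999 ± 0.13 SE, adjusted p = 0.000305). Stat3, the transcription factor of that glial response, had 68.7, 60.2 and 56.3 CPM after cp-asiNRL and 47.8, 47.2 and 45.8 CPM after PBS (log2 change 0.38 ± 0.06 SE, adjusted p = 0.000622). Cd44, a hyaluronan receptor of activated Müller glia, had 28.4, 19.5 and 17 CPM after cp-asiNRL and 14.1, 12.6 and 13.3 CPM after PBS (log2 change 0.63 ± 0.11 SE, adjusted p = 0.00235). All 4 were highest in cp-asiNRL 1, had no overlap between groups, and were called without each single library. Of the 21 genes of the list, 11 overlap another gene on the genome, so reads of such pairs cannot be told apart. With overlapping genes left out, 1 member was called higher, beside 271 of 11382 genes.

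A pair of members rose most in cp-asiNRL 1 and stayed called without it. Cebpd, an acute-phase transcription factor, had 8.03, 3.05 and 3.56 CPM after cp-asiNRL and 1.67, 1.48 and 2.33 CPM after PBS (log2 change 0.97 ± 0.19 SE, adjusted p = 0.00467), and without cp-asiNRL 1 its change was 0.63 (adjusted p = 0.00116). Serpina3n, a protease inhibitor that marks reactive astroglia, had 12.7, 2.02 and 1.39 CPM after cp-asiNRL and 1.07, 0.676 and 1.23 CPM after PBS, a change of 1.22 ± 0.37 SE with an adjusted p of 0.0458, and 0.45 without cp-asiNRL 1 (adjusted p = 0.018). Gfap, the filament protein of reactive glia, named after its values were seen, had 16, 8.87 and 6.35 CPM after cp-asiNRL and 6.57, 5.92 and 6.46 CPM after PBS and was not called (log2 change 0.55 ± 0.18 SE, adjusted p = 0.057). The median of the list was 0.09 without cp-asiNRL 1, where 7 genes were called higher, against 2.09% of all genes; without PBS 1 it had 5. Calls were lost for Cebpd without PBS 1 (adjusted p = 0.0549) and for Serpina3n without PBS 1, PBS 2 or PBS 3 (adjusted p = 0.183, 0.106 and 0.0795).

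**Figure D5:**
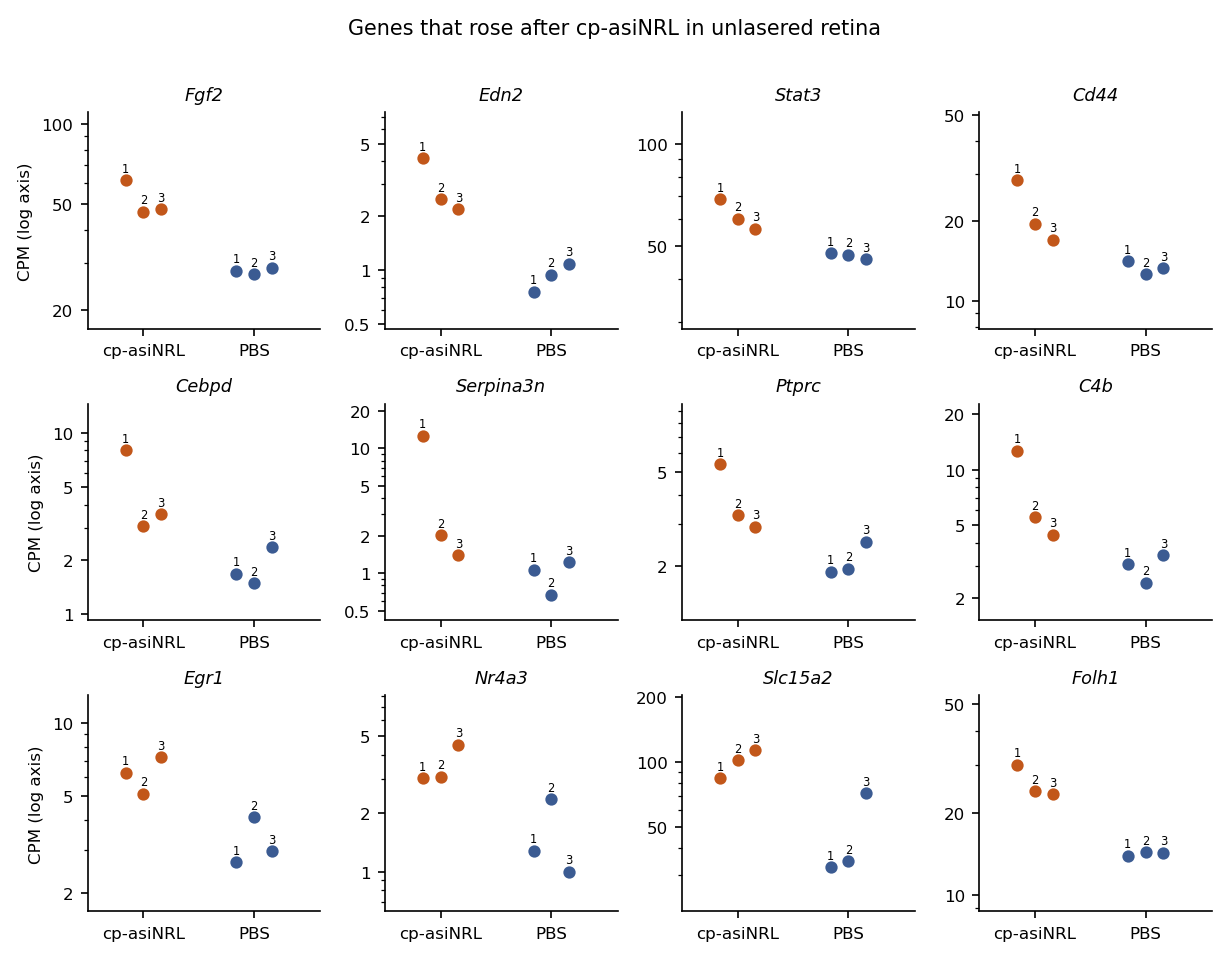
Level in CPM on log axes of 12 genes that were higher after cp-asiNRL, in each cp-asiNRL library (left of each panel) and each PBS library (right), 1 point per library with its replicate number. cp-asiNRL 1 stands above the other treated libraries for Serpina3n and C4b, and the 3 treated libraries lie close together for Egr1 and Folh1.

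Immediate early genes, which neurons and glia switch on within minutes of a stimulus, gave 5 higher calls of 20 and no lower one (median 0.06). Egr1 had 6.23, 5.11 and 7.24 CPM in cp-asiNRL retinas and 2.68, 4.1 and 2.96 CPM in PBS retinas (log2 change 0.77 ± 0.12 SE, adjusted p = 0.000807). Nr4a3, an orphan nuclear receptor, had 3.03, 3.08 and 4.5 CPM in cp-asiNRL retinas and 1.28, 2.35 and 0.997 CPM in PBS retinas (log2 change 0.86 ± 0.15 SE, adjusted p = 0.0018). Junb, a partner in AP-1, had 12.5, 6.81 and 6.74 CPM in cp-asiNRL retinas and 4.83, 4.47 and 5.31 CPM in PBS retinas (log2 change 0.67 ± 0.15 SE, adjusted p = 0.00765). The groups were apart for the 3 genes, and of the 3 only Junb had cp-asiNRL 1 far above its fellows; Junb was not called without PBS 1 (adjusted p = 0.0626). Without PBS 1 the list had 3 calls. Fos, the founding member, named after its values were seen, measured 0.26 ± 0.09 SE with an adjusted p of 0.0679.

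Immune genes were highest in 1 library, cp-asiNRL 1. The summed level of the 24 microglia and macrophage genes was 159.7 CPM in cp-asiNRL 1, 74.9 in cp-asiNRL 2 and 71.1 in cp-asiNRL 3, against 67.4 to 72.2 CPM in the PBS retinas. Of the 21 kept, 2 were called higher and none lower, and the median of 0.21 became 0.04 without cp-asiNRL 1. In that fit 2 were called higher and 1 lower, against 2.09% and 3.88% of all genes. Ptprc, the leukocyte surface protein CD45, had 5.37, 3.29 and 2.93 CPM after cp-asiNRL and 1.9, 1.95 and 2.53 CPM after PBS (log2 change 0.61 ± 0.14 SE, adjusted p = 0.00957), and C1qc, a chain of complement C1q that microglia make, had 6.68, 2.17 and 1.91 CPM after cp-asiNRL and 1.44, 1.28 and 1.52 CPM after PBS (log2 change 0.78 ± 0.22 SE, adjusted p = 0.0336). Lyz2, lysozyme of macrophages, named after its values were seen, had 21.2, 1.1 and 0.556 CPM after cp-asiNRL and 0.368, 0.864 and 0.558 CPM after PBS (log2 change 1.40 ± 0.56 SE, adjusted p = 0.127), and Gpnmb, a lysosomal protein of phagocytes named likewise, 26.5, 2.88 and 2.34 CPM after cp-asiNRL and 3.47, 4.32 and 4.92 CPM after PBS (log2 change 0.45 ± 0.46 SE, adjusted p = 0.594; -0.52 with an adjusted p of 0.00594 without cp-asiNRL 1). For both, cp-asiNRL 1 was far above the other 5 libraries. The resident microglia marker P2ry12 measured 0.04 (adjusted p = 0.708) and Tmem119 -0.00, and Aif1 lay at 8 to 19 reads per library. Of the 21 genes kept, 6 overlap another gene, and which cells the P2ry12 reads came from was not tested. Ptprc was not called without PBS 1 (adjusted p = 0.0886), nor C1qc without PBS 1, PBS 2 or PBS 3 (adjusted p = 0.156, 0.0725 and 0.0679). Whether cp-asiNRL 1 carried more phagocytes than the other samples was not tested.

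Complement, antigen presentation and interferon genes shared that pattern. C4b, a complement component that glia induce, had 12.7, 5.5 and 4.41 CPM in cp-asiNRL retinas and 3.06, 2.42 and 3.43 CPM in PBS retinas (log2 change 0.99 ± 0.21 SE, adjusted p = 0.00678), and without cp-asiNRL 1 its change was 0.60. B2m, the light chain of MHC class I, had 18.7, 8.08 and 6.15 CPM in cp-asiNRL retinas and 5.37, 5.36 and 4.73 CPM in PBS retinas (log2 change 0.82 ± 0.22 SE, adjusted p = 0.0222) and 0.40 without cp-asiNRL 1; Patl2 overlaps it. Irf9, part of the factor that carries the interferon signal, had 9.13, 6.94 and 7.24 CPM in cp-asiNRL retinas and 5.45, 6.33 and 5.66 CPM in PBS retinas (log2 change 0.36 ± 0.09 SE, adjusted p = 0.0226). In each of the 3 genes cp-asiNRL 1 was highest and the groups did not overlap. Higher calls numbered 2 of 15 for complement, 1 of 14 for antigen presentation and 3 of 25 for interferon response. Without cp-asiNRL 1 limma called 0 interferon genes (adjusted p = 0.0899 for Irf9). It then called 2 complement genes and 1 antigen presentation gene higher, the same counts as with 6 libraries, against 2.09% of all genes. C4b and B2m stayed called in that fit (adjusted p = 0.00147 and 0.0167). The list medians of complement and antigen presentation were then -0.01 and -0.06. Without PBS 1, 0 genes of the microglia, complement, antigen presentation and interferon lists were called, while without cp-asiNRL 3 the counts were 8, 4, 5 and 13, without cp-asiNRL 2 they were 7, 4, 2 and 5, without PBS 2 they were 1, 1, 1 and 3, and without PBS 3 they were 1, 1, 0 and 0. B2m had adjusted p = 0.116 without PBS 1 and 0.072 without PBS 3, Irf9 0.129 and 0.0556, and C4b 0.0554 without PBS 1.

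Among sensors of foreign double-stranded RNA and the RNA interference machinery 1 gene was called. Of 16 sensing genes 0 rose and 1 fell. That gene was Irf3, the factor that the sensors activate, at 21.7, 22.5 and 23 CPM after cp-asiNRL and 28.3, 26.9 and 25.9 CPM after PBS (log2 change -0.26 ± 0.05 SE, adjusted p = 0.00621), not called without PBS 1 (adjusted p = 0.0639). Tlr7, which senses single-stranded RNA in endosomes, measured 0.42 (adjusted p = 0.0819) and Mavs, the adaptor of the cytosolic sensors, -0.16 (adjusted p = 0.162). Of 14 genes of the RNA interference machinery limma called 0 (2 at an unadjusted p under 0.05, and 0 with voom weights, and 1 higher with upper-quartile scaling); Ago3, an Argonaute, was at 0.12 (adjusted p = 0.0966) and Tarbp2, a partner of Dicer, at -0.13 (adjusted p = 0.194).

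Some of the larger changes were in genes that stand in no list. Slc15a2, a peptide transporter, had 84.1, 102 and 113 CPM in cp-asiNRL retinas and 32.8, 34.9 and 71.9 CPM in PBS retinas (log2 change 1.17 ± 0.18 SE, adjusted p = 0.000629). The vehicle group was itself spread, PBS 3 standing above PBS 1 and PBS 2 yet below every treated library. Mpeg1, a pore-forming protein of macrophages, had 10.9, 2.27 and 2.07 CPM in cp-asiNRL retinas and 1.55, 1.63 and 1.13 CPM in PBS retinas (log2 change 1.02 ± 0.31 SE, adjusted p = 0.0425), most of it in cp-asiNRL 1. Without cp-asiNRL 1 the change was 0.39 and Mpeg1 was still called (adjusted p = 0.025). It was not called without PBS 1, PBS 2 or PBS 3 (adjusted p = 0.171, 0.058 and 0.127). Etnppl, a phosphoethanolamine lyase of astroglia, had 12.3, 7.72 and 10.6 CPM in cp-asiNRL retinas and 4.19, 4.53 and 5.34 CPM in PBS retinas (log2 change 0.96 ± 0.12 SE, adjusted p = 0.000116). Folh1, the glutamate carboxypeptidase that splits N-acetylaspartylglutamate, had 30.01, 24 and 23.4 CPM in cp-asiNRL retinas and 13.9, 14.4 and 14.3 CPM in PBS retinas (log2 change 0.81 ± 0.07 SE, adjusted p = 6.94e-06). Etnppl and Folh1 stayed called with the CNV libraries in the fit (adjusted p = 0.0395 and 0.0169). Among the falls outside those lists, Etv4, an ETS factor, had 2.97, 2.18 and 2.1 CPM after cp-asiNRL and 4.69, 3.68 and 3.67 CPM after PBS (log2 change -0.56 ± 0.11 SE, adjusted p = 0.00434; 0.057 without PBS 1). Sall2, a zinc finger factor, had 22.7, 21.6 and 21.9 CPM after cp-asiNRL and 53.2, 26.4 and 24.4 CPM after PBS (log2 change -0.54 ± 0.17 SE, adjusted p = 0.0471), a difference that lay mostly in PBS 1, without which the change was -0.18 (adjusted p = 0.127; 0.0807 without cp-asiNRL 2).

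Markers of the other cell types gave scattered calls. Among ON bipolar genes 1 rose and 4 fell of 23, with Pcp2, a G-protein regulator of these cells, at -0.35 ± 0.06 SE with an adjusted p of 0.00161. The bipolar list had 1 lower call without cp-asiNRL 1 or PBS 1 or with the span trend removed, 2 lower without cp-asiNRL 2, and 2 higher and 1 lower with upper-quartile scaling. Of 23 amacrine genes Calb2, calretinin, was called, with 45.2, 41.9 and 46 CPM after cp-asiNRL and 62.2, 53.9 and 53.4 CPM after PBS (log2 change -0.34 ± 0.06 SE, adjusted p = 0.00134). Of 23 ganglion cell and neurofilament genes 5 fell, led by Nefh, the heavy neurofilament chain, at -0.32 ± 0.06 SE with an adjusted p of 0.0017. That count was 3 without cp-asiNRL 2 or PBS 1. Of the 23 genes 16 had a negative log2 change, but their summed level was the higher one after cp-asiNRL. It was 3238 to 3317 CPM after cp-asiNRL and 3001 to 3168 CPM after PBS. Of 21 genes listed as vascular 4 fell, led by Vtn, the adhesion protein vitronectin, with 209, 226 and 238 CPM after cp-asiNRL and 307, 281 and 289 CPM after PBS (log2 change -0.38 ± 0.05 SE, adjusted p = 0.000211), whose groups, like those of Calb2, were apart. The whole list summed to 492 to 516 CPM after cp-asiNRL and 571 to 606 CPM after PBS. A large part of that sum, and of its fall, was Vtn. Which cells the Vtn reads came from was not tested, so its fall is not read as a vascular change. The vascular count was 1 without cp-asiNRL 3 or PBS 1 or with the span trend removed, and 2 without cp-asiNRL 2 or with upper-quartile scaling. Vegfa, the main growth factor for vessels, had 46.3, 49.7 and 41.8 CPM after cp-asiNRL and 54.2, 55 and 53.5 CPM after PBS (log2 change -0.24 ± 0.05 SE, adjusted p = 0.01; 0.0711 without PBS 1). Trp53, the gene of p53, had 20.9, 19.1 and 19.4 CPM after cp-asiNRL and 27.7, 29.7 and 25.9 CPM after PBS (log2 change -0.46 ± 0.06 SE, adjusted p = 0.000211) with no overlap, while its 18 fellow list members gave 1 higher call, and none without cp-asiNRL 1, PBS 1 or PBS 3. Among 7 lens, 7 oligodendrocyte, 6 red blood cell and 15 cell cycle genes kept, limma called 0 (1, 1, 1 and 3 at an unadjusted p under 0.05, and 0 with voom weights), though 1 oligodendrocyte and 1 cell cycle gene were called lower without PBS 2 and 2 red blood cell genes without PBS 3, and the medians of the amacrine, horizontal and oligodendrocyte lists turned from negative to 0.0039, 0.04 and 0.04 under upper-quartile scaling.

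The same injections in CNV retinas gave values that the test could not separate from those above. In a model of all 12 libraries the difference between the effect in unlasered retina and the effect in CNV retina passed the test for 0 of 25619 genes (0.0%) by limma, with 1591 at an unadjusted p under 0.05; leaving out CNV cp-asiNRL 2 gave 12 calls. Nrl changed by -0.34 in unlasered and -0.42 in CNV retina (difference 0.08 ± 0.22 SE, adjusted p = 0.952), Opn1sw by -0.39 and -0.26 (difference -0.13 ± 0.15 SE) and Hspa5 by -0.37 and -0.35 (difference -0.01 ± 0.08 SE). Larger differences were measured for Pde6h, at -0.38 in unlasered and 0.00 in CNV retina (difference -0.38 ± 0.11 SE), and for Ttr, at -0.87 and -0.21 (difference -0.67 ± 0.23 SE). Etnppl stood at 0.97 in unlasered and -0.21 in CNV retina, a difference of 1.18 ± 0.23 SE with unadjusted p = 0.000126 and adjusted p = 0.788 over all genes. Slc15a2 stood at 1.18 and -0.47 (difference 1.65 ± 0.48 SE) and Folh1 at 0.82 and 0.18 (difference 0.64 ± 0.15 SE), both with an adjusted p of 0.788.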

How the data were processed

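Polyadenylated RNA of mouse retina was sequenced from strand-marked libraries, per the labels' protocols. The submitters' processing notes name HISAT2 2.1.0, featureCounts 1.6.0 and mm10; the strand setting is not given in the sources used here. The authors deposited a signal that the file headers call FPKM. Every value times the gene length was whole within 1e-06 (482424 of 482424 values), so the signal is reads over length with no division by library total, and the length is the genomic span for 40200 single-locus genes. Gene coordinates in the deposited table are GRCm39. Of the genes, 17809 overlap another, so reads of overlapping genes and of near-identical copies are uncertain.

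Reads were recovered as signal times length and scaled to CPM with trimmed-mean factors (trims of 30% and 5%). Genes were kept that reached 10 reads, at the size of the median library, in 3 libraries, and 15 reads in total. The test was limma 3.58.1 with trend, in R 4.3.3, on log2(CPM + 1), with Benjamini-Hochberg adjustment at 0.05; fold changes on this scale understate low genes. No count model was fitted to the recovered reads, and limma's voom on them was run as an alternative. On simulated data for this comparison (24310 genes) the fit recovered 49.0% of genes changed 1.25-fold and 93.9% of those changed 2-fold, with 10 false of 169 calls. The simulated counts were drawn independently, with no trend with gene span and no library standing apart, as the real ones had. These rates therefore do not carry over to the real calls. Same-group libraries differed beyond sampling noise (chi-square per gene 4.20 to 8.06). Same replicate numbers were not taken to pair the libraries, and the check given with the block below does not settle whether they do.

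The lists and the genes named were chosen with earlier results of these data known. The rule for named genes took Nrl, all members of the rod, cone and regulator lists, from every other list the members lowest in p, at most 4 a list, and, of called genes that averaged 2 CPM or more with groups apart, the 10 that rose most and the 10 that fell most, unnamed gene models left out; other genes are marked as named after their values were seen. A few genes that the rule took are not reported here.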

Additional observations from a re-analysis of the deposited data

How the results depend on the processing

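The 2245 calls numbered 547 with no filter on low values, 81 against a threshold of 1.1-fold (limma's treat), 36 with all 12 libraries in the fit, 1411 with the span trend removed, 1164 with overlapping genes left out (11382 genes tested) and 526 to 2457 without single libraries. The 621 higher calls numbered 1486 with upper-quartile scaling, 110 with no filter, 36 against 1.1-fold, 12 with 12 libraries, 271 with overlapping genes left out and 161 to 790 without single libraries. The 1624 lower calls numbered 842 with upper-quartile scaling, 437 with no filter, 45 against 1.1-fold, 24 with 12 libraries, 947 with the span trend removed, 893 with overlapping genes left out and 365 to 1667 without single libraries. The 221 called list members numbered 74 with no filter, 25 against 1.1-fold, 10 with 12 libraries, 142 with overlapping genes left out and 86 to 238 without single libraries. The cause of these shifts was not tested, apart from the smaller number of genes tested with overlapping genes left out. Nrl changed by -0.41 to -0.28 without single libraries and was not called against 1.1-fold (-0.35, adjusted p = 0.102) or with 12 libraries (-0.34, adjusted p = 0.318). The difference between unlasered and CNV retina gave 0 to 12 calls without single libraries. Of the genes named here 10 that were never called where their sign changed stood on both sides of 0 over the alternatives (Best1, Cdh5, Cngb3, Mitf, Neurod1, Rorb, Sag, Slc24a2, Thrb and Tmem119). Gpnmb, at 0.45 and not called with 6 libraries, was called at -0.52 without cp-asiNRL 1 and stood at 0.99, not called, without cp-asiNRL 3.

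With the replicate number as a block limma called 2848 genes, 903 higher and 1945 lower, including all 2245, and 0 for the difference between unlasered and CNV retina. The deviations of same-numbered libraries correlated at 0.026, 0.112 and 0.073 over 24321 genes, and those of differently numbered libraries at -0.129 to 0.056. Such values do not settle whether the numbers pair the libraries, and the main fit did not pair them. Precision is limited by 3 libraries a group rather than by depth for most genes named, and by depth for those near 1 CPM, which stand at about 50 to 100 reads per library.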

Other observations

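Of the 36 genes that were also called with the CNV libraries in the fit, several stood in none of the lists; those described here were named after their values were seen. Among them were 3 gene models close to each other on chromosome 6 (GRCm39), Gm765 at 98212665 to 98319715 on the minus strand, and Gm32646 at 98379780 to 98400062 and Gm32783 at 98494601 to 98498902 on the plus strand. Gm765 had 15.8, 16.5 and 18.5 CPM in cp-asiNRL retinas and 7.6, 6.93 and 8.35 CPM in PBS retinas (log2 change 1.05 ± 0.08 SE, adjusted p = 6.3e-07 by limma), the smallest adjusted p of all genes. Gm32646 had 12.9, 15 and 16.9 CPM in cp-asiNRL retinas and 7.27, 5.58 and 8.4 CPM in PBS retinas (log2 change 0.99 ± 0.11 SE, adjusted p = 6.8e-05), and Gm32783 had 7.22, 7.67 and 8.11 CPM in cp-asiNRL retinas and 4.27, 4.36 and 4.51 CPM in PBS retinas (log2 change 0.69 ± 0.08 SE, adjusted p = 0.000108). In all 3 every treated library was above every vehicle library. Another gene model overlaps Gm765.

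Phex, a membrane endopeptidase known from phosphate balance, had 15.9, 15.1 and 14.1 CPM in cp-asiNRL retinas and 10.2, 10.5 and 11.4 CPM in PBS retinas (log2 change 0.45 ± 0.07 SE, adjusted p = 0.000645). Slc12a1, the sodium, potassium and chloride cotransporter best known from the kidney, had 9.98, 10.7 and 10.3 CPM in cp-asiNRL retinas and 7.41, 6.52 and 7.94 CPM in PBS retinas (log2 change 0.45 ± 0.08 SE, adjusted p = 0.0018). Both were higher in all treated libraries. Smug1, a uracil DNA glycosylase, had 64.3, 69.1 and 65.9 CPM in cp-asiNRL retinas and 92.7, 89.6 and 85.3 CPM in PBS retinas (log2 change -0.42 ± 0.05 SE, adjusted p = 6.8e-05), Mif, a cytokine with tautomerase activity, had 9.71, 9.7 and 8.92 CPM after cp-asiNRL and 13.1, 13.3 and 12.7 CPM after PBS (log2 change -0.43 ± 0.07 SE, adjusted p = 0.000928), and Calm3, a calmodulin gene, had 130.2, 127 and 135 CPM after cp-asiNRL and 179.8, 160.4 and 161 CPM after PBS (log2 change -0.35 ± 0.05 SE, adjusted p = 0.000312). These 3 were lower in all treated libraries, and Calm3 codes for the same protein as other calmodulin genes.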
